A study of Gallus gallus with 6 samples.

Results

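The genes described here are the secreted and membrane-bound metalloproteases that cut the extracellular matrix and cell-surface proteins, together with their inhibitors, in chicken preadipocytes given extra KLF2. They were taken from the deposited gene table by name: every gene whose symbol starts with ADAMTS, or with MMP, ADAM or TIMP followed by a digit. The rule gave 44 of the 18495 genes in the table: 10 MMP, 12 ADAM, 16 ADAMTS, 3 ADAMTSL and 3 TIMP genes.

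The RNA came from ICP1, an established line of chicken preadipocytes, harvested 48 h after transfection. The 3 EV wells had received the empty expression plasmid pCMV-myc and the 3 KLF2 wells the plasmid pCMV-myc-KLF2, so both groups went through transfection and differed in the insert. KLF2 is a Krüppel-like factor that binds DNA through zinc fingers, here driven by the CMV promoter that the plasmid's name gives; the labels do not say which species the insert came from or what share of cells took it up. All 6 wells held the same line and each well counted as a replicate, so tests rest on well-to-well spread alone. RNA was measured in bulk, where fewer cells making a transcript and less transcript per cell cannot be told apart.

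Matrix metalloproteases (MMPs) are zinc enzymes made as inactive proenzymes; some are secreted and others sit in the membrane. ADAMs are mostly membrane proteins that release the outer parts of growth factors, receptors and adhesion molecules, a cut known as shedding, whereas ADAMTS proteases are secreted and act on procollagens and proteoglycans such as versican and aggrecan. ADAMTS-like (ADAMTSL) proteins share the accessory domains of the ADAMTS proteases but lack the protease domain, and TIMPs are small secreted proteins that block the active site of MMPs and of some ADAM and ADAMTS enzymes. In adipose tissue, matrix remodelling by these enzymes accompanies the growth of fat cells out of fibroblast-like precursors.

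The libraries held 13255169 to 14168807 reads assigned to genes, and 15469 to 16090 genes had at least 1 read in each. KLF2 had normalized counts (reads scaled by the authors for library size) of 1093, 675 and 697 in EV and 1052, 1618 and 2412 in KLF2 libraries, listed here and below in the order of replicates 1 to 3. The groups overlapped, since EV 1 lay above KLF2 1, and the log2 fold change of 1.00 (SE 0.31) did not pass (adjusted p = 0.962, limma with Benjamini-Hochberg adjustment). Of 17 preadipocyte and fibroblast markers in the table, 15 had a mean of at least 20, with sums of 204810 to 222586 in EV and 191766 to 209585 in KLF2 libraries, while DLK1 and ENG lay near 0. Adipocyte markers summed to 297 to 340 in EV and 274 to 325 in KLF2 libraries, with ADIPOQ and PLIN1 near 0. Endothelial markers summed to 974 to 1271 and 992 to 1141, mostly ERG, and leukocyte markers, with 5 of 8 symbols found, to 915 to 1281 and 993 to 1270, mostly SPI1. A mean of at least 20 was reached by 3 of the 7 adipocyte, 5 of the 8 endothelial and 4 of the 5 leukocyte markers found. For other cell types the table held 4 of 7 muscle, 3 of 8 cartilage and bone, 6 of 8 epithelial and 5 of 8 neural symbols. Of those found, only the neural marker TUBB3 reached a mean of 20, and the missing symbols could not be read. EV 1 and KLF2 3 stood apart: ribosomal RNA genes took 0.350% and 0.131% of their reads against 0.00162% to 0.0215% in the other 4 libraries, and their scores on the first principal component (67.1% of the variance) were 38.5 and 27.1 against values below 0 in the other 4. KLF2 1 stood at the far end of that component, at -42.5, with -15.6 to -1.997 for the remaining 3.

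In ICP1 cells 20 of the 44 genes had a mean normalized count of at least 100, and 19 had a mean under 20. The repertoire was led by MMP2 and TIMP2. Levels are compared between genes as normalized counts per kilobase of gene length; on this scale MMP2 stood at 4646 ± 502 (SD, n = 6) and TIMP2 at 3229 ± 843 (SD, n = 6), placing them in the top 0.579% and 1.01% of the table. The next genes, ADAM9, ADAM10 and ADAM8, stood at 749 ± 53.2, 629.9 ± 82.7 and 328 ± 57.1 per kilobase (SD, n = 6). MMP2 alone made up 32.8% to 46.3% of the summed per-kilobase level of the 44 genes in each library, and TIMP2 19.97% to 35.2%.

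**Figure D1:**
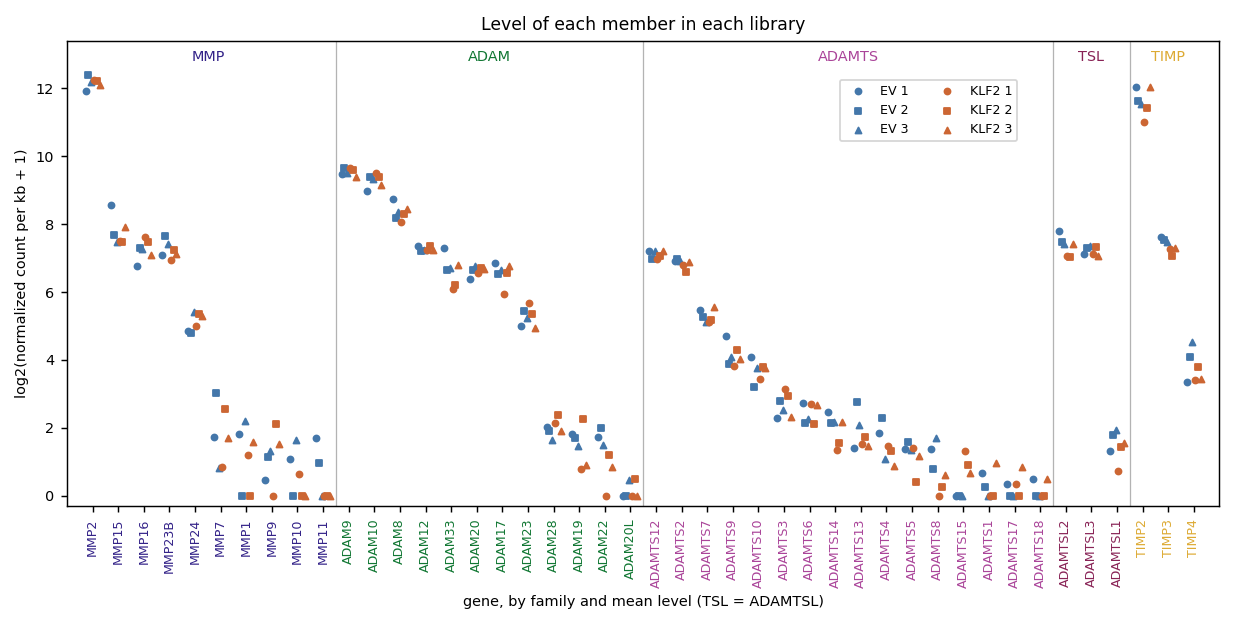
Level of each of the 44 genes in each of the 6 libraries, as log2 of the normalized count per kilobase plus 1, by family and mean level; blue points are EV and orange points KLF2 libraries, with the shape giving the replicate. MMP2 and TIMP2 lie far above the other genes of their families, and most ADAMTS genes lie near the bottom of the scale.

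The comparison of KLF2 with EV wells asks which of these genes differed after KLF2 transfection. After the filter on low values 42 of the 44 genes were tested, all but ADAM20L and ADAMTS18; MMP10, MMP11, ADAMTS15 and ADAMTS17 passed it through 1 group only. In robust limma-trend with Benjamini-Hochberg adjustment over 16765 genes, 0 of the 42 passed 0.05, the lowest adjusted p being 0.962, and 0% of all tested genes passed. An unadjusted p under 0.05 was reached by 6 of the 42, against 2.11% of all tested genes. ADAMTS15 was higher in KLF2 libraries, where 0.913% of all genes were higher at this p, and ADAM22, ADAM33, ADAMTS8, ADAMTSL2 and TIMP3 were lower, where 1.2% were lower. edgeR's quasi-likelihood test on the recovered reads called 0 genes and had 2 of its 30 tested members at an unadjusted p under 0.05 (ADAMTSL2 and TIMP3; 1.3% of all genes), and DESeq2 called 0 and had 4 of 44 (ADAM33, ADAMTS15, ADAMTS8 and ADAMTSL2; 0.936% of all genes).

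The median log2 fold change of the 42 tested genes was -0.17, beside -0.01 for all tested genes, and 28 of them had a lower mean log2 value in KLF2 than in EV libraries, where 50.9% of all tested genes did. By family the median was -0.21 for the MMPs, 0.01 for the ADAMs, -0.16 for the ADAMTS genes, -0.41 for the ADAMTSL genes and -0.33 for the TIMPs. The MMP and ADAMTS medians draw on genes near the floor, and the ADAMTS one is the value of ADAMTS1, with 0 to 5 reads. With 3 genes each, the ADAMTSL and TIMP medians are the values of ADAMTSL2 and TIMP3. MMPs with a mean of at least 20 had 0.01 (MMP2), -0.27 (MMP15), 0.29 (MMP16), -0.28 (MMP23B) and 0.19 (MMP24). For the 20 members with a mean of at least 100 the median was -0.12, beside 0.001 for all genes at that level. For 6 of the 42 genes the groups did not overlap, 1 higher and 5 lower in KLF2 libraries, where 6.65% of all tested genes did not overlap, 3.39% higher and 3.26% lower. The 1 higher gene was ADAMTS15, tested through the KLF2 group only, and the 28 lower genes include MMP10 and MMP11, tested through the EV group only. The median of the 42 moved to -0.06 without KLF2 1.

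**Figure D2:**
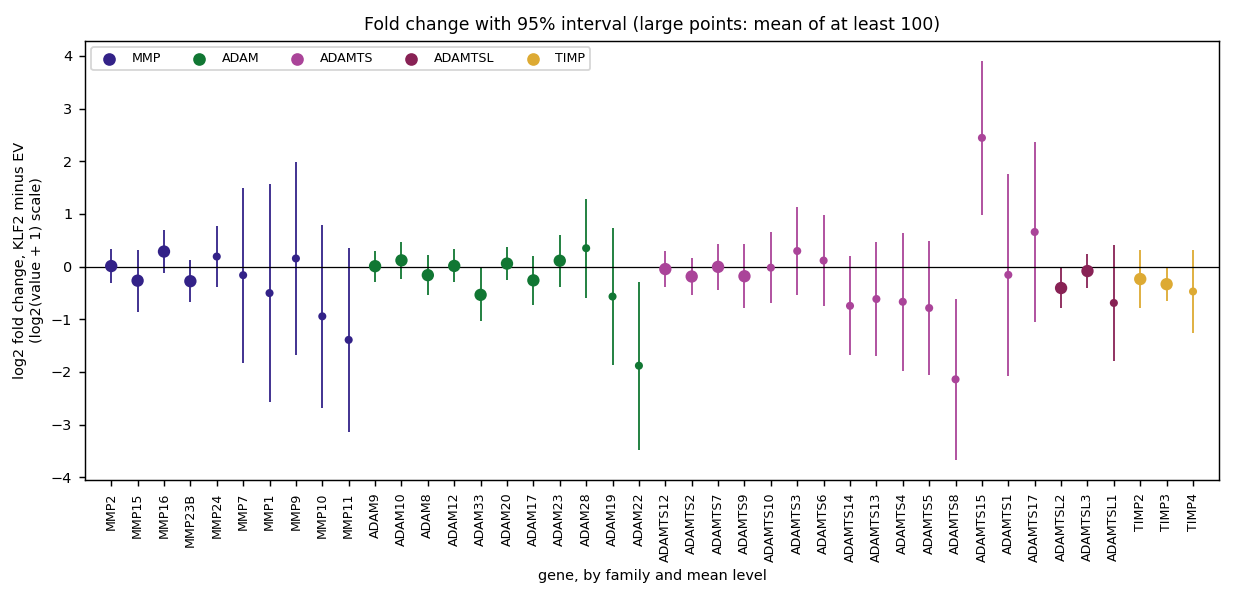
Log2 fold change (KLF2 minus EV, on the log2(normalized count + 1) scale) of the 42 tested genes by family, with 95% intervals from limma; large points have a mean of at least 100 normalized counts. The large points lie within 1 of zero, and intervals widen for the genes with few reads.

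MMP2, the gelatinase that cuts denatured collagen and collagen IV, was at the same mean level in both groups. On the GRCg7b build the gene (ENSGALG00010025414) occupies 3343464 to 3385587 of chromosome 11. Its normalized counts were 12106, 16760.5 and 14512 in EV and 14968, 14898 and 13499 in KLF2 libraries. The KLF2 values fell inside the EV range, and EV 1 was the lowest library. With SE 0.15 and a 95% interval of -0.31 to 0.33, its log2 fold change of 0.01 turned sign under several settings.

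MMP15 and MMP16 encode membrane-anchored MMPs. MMP15 had normalized counts of 1105, 593 and 519.7 in EV and 533, 518 and 709 in KLF2 libraries. EV 1 alone was far above the rest and KLF2 3 came next; the log2 fold change was -0.27 (SE 0.27) and 0.06 without EV 1. On chromosome 11 MMP15 shares 4485 bases with ZNF319 on the opposite strand and 1428 with USB1 on its own, and reads there cannot be told apart. MMP16 had 667, 962 and 932 in EV and 1207, 1088 and 826 in KLF2 libraries. Here EV 1 and KLF2 3 were the lowest, where they had been the highest for MMP15. The log2 difference was 0.29 (SE 0.19, 95% interval -0.13 to 0.70); it was 0.12 without EV 1 and 0.44 without KLF2 3.

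MMP23B, an unusual MMP with its anchor at the amino-terminal end, had normalized counts of 477, 702 and 594 in EV and 431, 530.3 and 490.2 in KLF2 libraries. The groups overlapped through EV 1, and the log2 fold change was -0.28 (SE 0.18), or -0.42 without EV 1 and -0.14 without EV 2. MMP24, another membrane-anchored MMP, averaged 99.5 over the 6 libraries. The secreted enzymes MMP1, MMP7, MMP9, MMP10 and MMP11, among them a collagenase, matrilysin, a second gelatinase and stromelysins, were at the floor of detection. Their means over the 6 libraries ran from 1.13 to 3.86 normalized counts, at most 9 reads in any library. MMP11 had 5, 2 and 0 reads in EV and 0 in each KLF2 library, so the groups overlapped. Against a floor of 3 reads over the KLF2 group, its summed EV value was 2.32-fold higher. That ratio takes the 7 EV reads as exact, so it is not a full bound on counting error. MMP10, MMP1 and MMP7 lie within 250000 bp of one another on chromosome 1, and all 3 were at the floor of detection.

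The 3 TIMPs all had lower means in KLF2 than in EV libraries, without passing the test. TIMP2 (ENSGALG00010029270, chromosome 18, 10395986 to 10403847) encodes an MMP inhibitor that, in mammals, also takes part in activating proMMP2 at the cell surface. It had normalized counts of 10911, 8197 and 7829.7 in EV and 5414, 7162 and 11059.7 in KLF2 libraries. KLF2 1 and KLF2 2 lay below each EV library, but KLF2 3 was the highest of the 6 and EV 1 came next. KLF2 minus EV gave -0.24 on the log2 scale (SE 0.25, 95% interval -0.79 to 0.32), which ran from -0.51 without KLF2 3 to 0.003 without KLF2 1. Without EV 1 and KLF2 3 it was -0.36, with an adjusted p of 0.193 in limma with Benjamini-Hochberg adjustment. This was the lowest adjusted p among the 40 members tested in that fit. The fit was added after seeing the data and compares only EV 2 and EV 3 with KLF2 1 and KLF2 2. On the first principal component these KLF2 libraries scored -42.5 and -15.6, below the EV ones at -5.52 and -1.997. In this fit that component and the plasmid cannot be told apart.

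TIMP3, a matrix-bound inhibitor that in mammals also blocks ADAM17 and several ADAMTS proteases, was lower in each KLF2 library than in each EV library. The gene (ENSGALG00010015407) lies on chromosome 1 from 53137054 to 53174022, inside SYN3 on the opposite strand, which averaged 8.36 normalized counts. TIMP3 had 1043, 988 and 944 normalized counts in EV and 824, 707 and 834 in KLF2 libraries. The means were 992 ± 49.7 and 788 ± 70.3 (SD, n = 3 each), a log2 fold change of -0.33 (SE 0.15, 95% interval -0.65 to -0.02). The unadjusted p was 0.0408 and the adjusted p 0.962 in limma with Benjamini-Hochberg adjustment. Leaving out 1 library at a time gave -0.38 to -0.26, with an unadjusted p under 0.05 in 2 of the 6 fits, and leaving out EV 1 and KLF2 3 together gave -0.34. TIMP4, the least abundant inhibitor of the 3, had 31.6, 54.0 and 75.5 in EV and 32.5, 43.5 and 33.4 in KLF2 libraries, overlapping through EV 1 (log2 fold change -0.47, SE 0.36).

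The ratio of MMP2 to TIMP2, each per kilobase, was 0.931, 1.71 and 1.55 in EV and 2.32, 1.74 and 1.02 in KLF2 libraries. It was lowest in EV 1 and KLF2 3 and highest in KLF2 1, and the groups overlapped. The means were 1.40 ± 0.414 and 1.70 ± 0.649 (SD, n = 3 each), a difference smaller than either SD. The summed per-kilobase level of the MMP, ADAM and ADAMTS genes stayed between 7115 and 8567 in the 6 libraries, while that of the TIMPs ran from 2237 to 4403. MMP2 averaged 4646 beside a mean of 7760 for the first sum, and TIMP2 3229 beside 3409 for the second. The sums thus mostly follow MMP2 and TIMP2, and the first includes the gene named ADAM20, which could not be read as a protease. The ratio of the first sum to the second was 1.62 in EV 1 and 1.67 in KLF2 3, and 2.43 to 3.52 in the other 4 libraries. From lowest to highest ratio the libraries stood in the order of falling ribosomal RNA share and of falling first component score; the part of library quality in it was not tested.

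**Figure D3:**
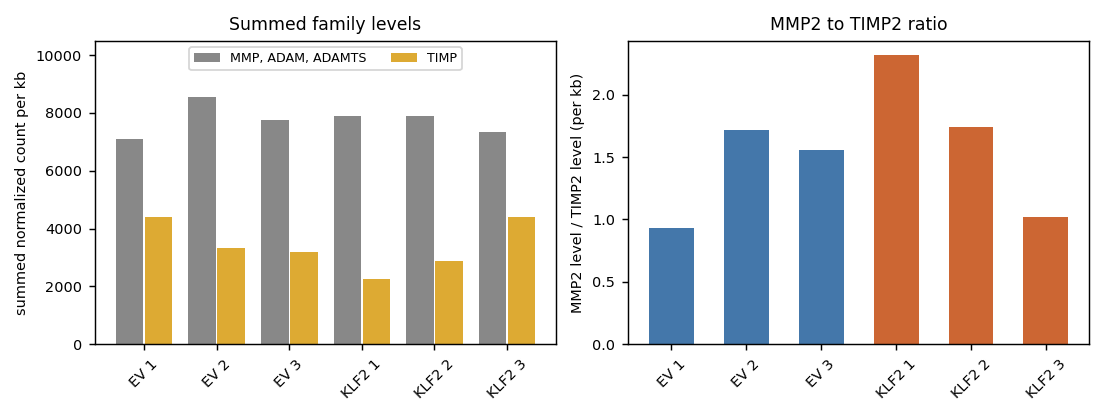
Left, summed normalized count per kilobase of the MMP, ADAM and ADAMTS genes (grey) and of the TIMPs (yellow) in each library; right, the ratio of MMP2 to TIMP2 per kilobase, with EV blue and KLF2 orange. The ratio was lowest in EV 1 (0.931) and KLF2 3 (1.02) and highest in KLF2 1 (2.32), so the groups overlapped.

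**Figure D4:**
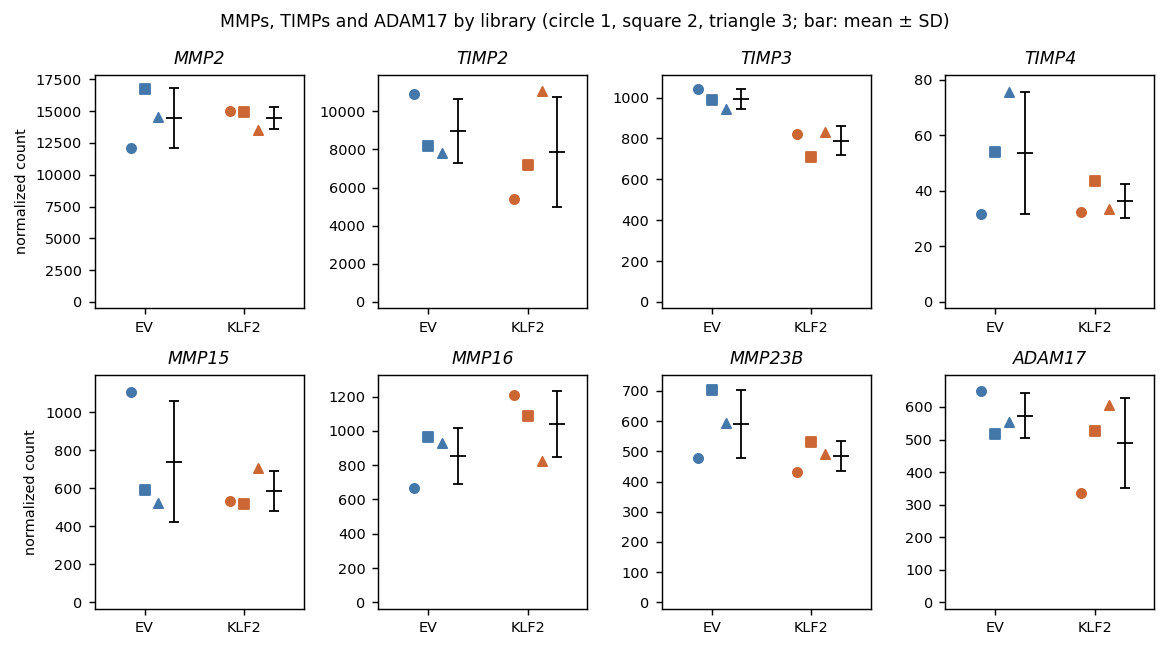
Normalized counts of MMP2, the TIMPs, MMP15, MMP16, MMP23B and ADAM17 in each library, with the mean and SD (n = 3) of each group. TIMP3 is the gene here whose groups do not overlap; for TIMP2 the highest library is KLF2 3 and the lowest KLF2 1.

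Among the ADAMs, the shedding enzymes ADAM9, ADAM10 and ADAM17 were all present, and their levels did not differ between groups beyond the spread between wells. ADAM9, a widely expressed sheddase, had normalized counts of 3759.7, 4261 and 3873 in EV and 4266, 4129 and 3584 in KLF2 libraries. KLF2 1 was the highest and KLF2 3 the lowest, and the log2 fold change of 0.01 (SE 0.14) turned sign with the library left out. ADAM10, the main sheddase of Notch and cadherins, had 2269.8, 3066 and 2932 in EV and 3322, 3032 and 2594 in KLF2 libraries. EV 1 and KLF2 3 were its lowest libraries, and the log2 fold change was 0.12 (SE 0.16). ADAM17, which releases TNF and EGF receptor ligands, had 649.8, 516 and 553 in EV and 337, 527 and 606 in KLF2 libraries. KLF2 1 was far below the rest; the log2 fold change was -0.26 (SE 0.22) and -0.01 without KLF2 1. The last 1489 bases of the ADAM17 span are shared with IAH1 on the opposite strand.

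ADAM33, a proteolytic ADAM expressed in human mesenchymal cells, had the lowest unadjusted p among the ADAMs with a mean of at least 100 (0.0377, adjusted p = 0.962, limma with Benjamini-Hochberg adjustment). It lies on chromosome 4 from 89158619 to 89183220 (ENSGALG00010018068). Its normalized counts were 645, 414 and 429 in EV and 279, 298 and 450.0 in KLF2 libraries. KLF2 1 and KLF2 2 lay below each EV library, and KLF2 3 lay above EV 2 and EV 3, so the groups overlapped. The means were 496 ± 129 and 343 ± 93.6 (SD, n = 3 each), a log2 fold change of -0.54 (SE 0.23, 95% interval -1.04 to -0.04). Without EV 1 and KLF2 3 it was -0.54, and leaving out single libraries gave -0.75 to -0.33, with an unadjusted p under 0.05 in limma in 3 of the 6 fits.

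ADAM8, a sheddase best known from leukocytes in mammals, had normalized counts of 1312, 886 and 991 in EV and 809, 959 and 1059.6 in KLF2 libraries. EV 1 and KLF2 3 were again the highest, and the log2 fold change was -0.16 (SE 0.18). ADAM12, a protease of muscle, bone and fat precursors in mouse, was the steadiest of the 20 members with a mean of at least 100. It had 848, 760.4 and 776 in EV and 777, 848 and 781 in KLF2 libraries, a highest value 1.12 times the lowest and a log2 fold change of 0.01 (SE 0.14, 95% interval -0.30 to 0.33).

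ADAM22 and ADAM23 encode catalytically inactive ADAMs that bind LGI proteins at synapses in mammals. ADAM23 had normalized counts of 228, 306 and 266 in EV and 369, 292 and 217 in KLF2 libraries, with KLF2 libraries at both ends of the range (log2 fold change 0.11, SE 0.23). ADAM22 was close to the floor, with 11, 14 and 9 reads in EV and 0, 6 and 4 in KLF2 libraries. Each KLF2 library lay below each EV library, and the log2 fold change was -1.88 (SE 0.74, unadjusted p = 0.0244, adjusted p = 0.962 in limma with Benjamini-Hochberg adjustment). Without KLF2 1, the library with 0 reads, it was -1.03. ADAM28 and ADAM19 averaged 13.6 and 10.9 normalized counts, and ADAM20L had 1 read in EV 3 and 1 in KLF2 2. RefSeq places ADAMDEC1 over 18242 bases of the ADAM28 span and lists no ADAM28 on chromosome 22, so the name ADAM28 is uncertain.

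The gene named ADAM20 could not be read as a protease. Its deposited description is that of mediator complex subunit 6, its gene model of 20341 bases is the longest of the 44, and the deposited annotation lists no protein domain for it. The model spans chromosome 5 from 26878464 to 26962546 and contains the RefSeq gene MED6 (26946540 to 26954977) and, on the opposite strand, the whole of TTC9. Its normalized counts were 1672, 2004 and 2185 in EV and 1891, 2097 and 2083 in KLF2 libraries, and they cannot be assigned to ADAM20. The groups overlapped (log2 fold change 0.06, SE 0.15), and without this gene 0 members passed as well.

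The ADAMTS family was the largest by number of genes, but 4 of its 16 genes had a mean of at least 100 normalized counts. ADAMTS12, a protease of cartilage oligomeric matrix protein, had normalized counts of 777, 656 and 779.6 in EV and 660.1, 702 and 779 in KLF2 libraries. The ranges of the groups were nearly the same (log2 fold change -0.05, SE 0.15); 8327 bases of its span are shared with TARS on the opposite strand. ADAMTS2, the procollagen N-proteinase that trims type I procollagen, had 553, 577 and 548 in EV and 502, 441 and 535 in KLF2 libraries. Each KLF2 library lay below each EV library, by as little as 548 against 535, and the log2 difference was -0.19 (SE 0.16, 95% interval -0.53 to 0.16). Its close relatives ADAMTS3 and ADAMTS14, also procollagen proteinases, averaged 27.7 and 18.3 with overlapping groups.

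ADAMTS7, another protease of cartilage oligomeric matrix protein, had normalized counts of 312, 272 and 243 in EV and 245, 251 and 333 in KLF2 libraries. KLF2 3 and EV 1 were the highest, and the log2 fold change was -0.004 (SE 0.20). ADAMTS9, a versican-cutting protease, had 176, 94.8 and 113 in EV and 91.4, 130.5 and 108 in KLF2 libraries. EV 1 was the highest library; the log2 fold change of -0.18 (SE 0.28) became 0.07 without it. The other proteoglycan-cutting enzymes, ADAMTS1, ADAMTS4, ADAMTS5, ADAMTS8 and ADAMTS15, averaged 1.46 to 8.59 normalized counts. ADAMTS10 averaged 65.4 and ADAMTS6 22.6, while ADAMTS13, the plasma protease of von Willebrand factor, averaged 14.8.

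ADAMTS15 and ADAMTS8 were at a handful of reads each. ADAMTS15, which passed the filter on low values through the KLF2 group only, had 0 reads in each EV library and 7, 4 and 3 reads in the KLF2 libraries. Against a floor of 3 reads over the EV group, its summed value in KLF2 libraries was 4.77-fold higher. That ratio takes the 14 KLF2 reads as exact, so it is not a full bound on counting error, and it leaves out well-to-well spread. The unadjusted p of ADAMTS15 was 0.00325 and its adjusted p 0.962 in limma with Benjamini-Hochberg adjustment. Since ADAMTS15 was tested because of the group where it was high, this p is a description.

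ADAMTS8 had 9, 4 and 13 reads in EV and 0, 1 and 3 in KLF2 libraries. The lowest EV library thus stood 1 read above the highest KLF2 library, at 4 against 3. The log2 fold change was -2.14 (SE 0.71, unadjusted p = 0.00998, adjusted p = 0.962 in limma with Benjamini-Hochberg adjustment). ADAMTS8 kept an unadjusted p under 0.05 in limma in each of the 6 fits that left out 1 library, as did ADAMTS15. Without KLF2 3, however, ADAMTS8 passed the filter on low values only through the EV group, where it was high. The p of that fit is thus a description. edgeR's filter on low counts left both genes untested.

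These genes are neighbours. ADAMTS8 runs on the minus strand of chromosome 24 from 1710250 to 1724716 and ADAMTS15 on the plus strand from 1731427 to 1743161 in GRCg7b, head to head, with 6710 bp and no other table gene between them. ADAMTS1 and ADAMTS5 lie on chromosome 1, 30143 bp apart; ADAMTS5 had 10, 12 and 10 reads in EV and 10, 2 and 8 in KLF2 libraries, and ADAMTS1 had 0 to 5 in any library. The groups overlapped for both.

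The ADAMTSL genes, without a protease domain, had lower means in KLF2 than in EV libraries in 3 of 3 cases. ADAMTSL2 encodes a glycoprotein that binds fibrillin and, in mammals, the latent TGF-beta binding protein LTBP1. It lies on chromosome 17 from 7577950 to 7598173 (ENSGALG00010028876) and had 953, 757 and 729 normalized counts in EV and 569, 551 and 721 in KLF2 libraries. Each KLF2 library lay below each EV library, the nearest being 721 in KLF2 3 against 729 in EV 3. The means were 813 ± 122 and 614 ± 93.7 (SD, n = 3 each), a log2 fold change of -0.41 (SE 0.17, 95% interval -0.78 to -0.03). The unadjusted p was 0.0354 and the adjusted p 0.962 in limma with Benjamini-Hochberg adjustment, and without EV 1 and KLF2 3 the log2 fold change was -0.41. Leaving out 1 library at a time gave -0.53 to -0.29, the latter without EV 1, with an unadjusted p under 0.05 in limma in 2 of the 6 fits.

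ADAMTSL3, a related matrix protein, had normalized counts of 1075, 1197 and 1257 in EV and 1065, 1237 and 1031 in KLF2 libraries, with overlapping groups (log2 fold change -0.08, SE 0.15). ADAMTSL1 averaged 14.5 (log2 fold change -0.69, SE 0.51). ADAMTS13 lies 45794 bp from ADAMTSL2 on the same strand, with 4 other genes between them. ADAMTS13 had 9, 30 and 18 reads in EV and 10, 12 and 10 in KLF2 libraries, with overlapping groups.

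**Figure D5:**
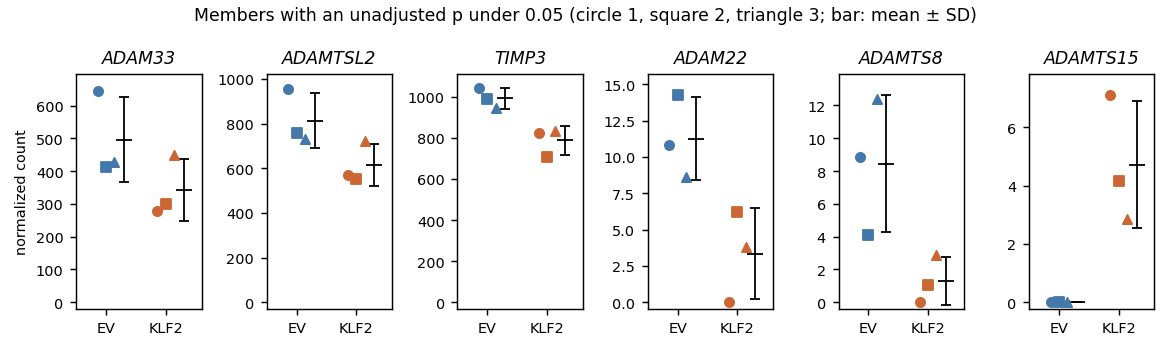
Normalized counts of the 6 genes with an unadjusted p under 0.05 in limma, in each library, with the mean and SD (n = 3) of each group. The ADAM33 groups overlap; ADAM22, ADAMTS8 and ADAMTS15 rest on at most 14 reads in any library.

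EV 1 and KLF2 3 lay together at either end of the range for part of the members, a share near that of all genes. Among the 25 members with a mean of at least 20 normalized counts, EV 1 and KLF2 3 were the 2 highest libraries for 6 (MMP15, ADAM8, ADAM33, ADAM17, ADAMTS7 and TIMP2) and the 2 lowest for 6 (MMP2, MMP16, ADAM9, ADAM10, ADAM23 and ADAMTS3). That is 12 of 25, or 48.0%, where 52.0% of all genes at this level had these libraries at either end. The 2 libraries belong to different groups and had the most ribosomal RNA reads; the part of this in the members' values was not tested. Without both, 10 of the 40 members then tested had an unadjusted p under 0.05, where 10.0% of all genes did: the same 6 and MMP16, MMP23B, TIMP2 and TIMP4. Of these, ADAMTS15 then passed the filter on low values through the KLF2 group only and ADAMTS8 through the EV group only. The fit was added after seeing the data and compares only EV 2 and EV 3 with KLF2 1 and KLF2 2. These groups also lie apart on the first principal component, which cannot be told apart from the plasmid here. In that fit 0 members passed in limma with Benjamini-Hochberg adjustment, beside 4 genes of the whole table (0.0234%), KLF2 among them.

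The authors' deposited table gave an adjusted p under 0.05 to 0 genes, with a lowest value of 0.661. For 4 of the 44 members the authors' deposited table gave an unadjusted p under 0.05: ADAM33 (0.0406), ADAMTS15 (0.0149), ADAMTS8 (0.0362) and ADAMTSL2 (0.0439). The DESeq2 fit above had the same 4 genes, where 0.936% of all genes reached that p. Since the authors' log2 fold changes match that fit (-0.53324 in both for ADAM33), the 2 results are not separate evidence.

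Genes that act with these proteases were read from 9 lists, and 0 of their genes passed in limma with Benjamini-Hochberg adjustment. For the counts of direction given per list, 50.9% of all tested genes were lower in KLF2 libraries, with a median log2 fold change of -0.006. No list was tested. Plasminogen activation is the serine protease cascade that activates several MMPs. Of 10 entries for its genes, with S100A10 counted under 2 identifiers, 3 had higher and 7 lower mean log2 values in KLF2 libraries (median log2 fold change -0.24). ANXA2, a cell-surface receptor of this system and the most abundant of the list, had normalized counts of 20002, 18326 and 19111 in EV and 11569, 17375 and 22555 in KLF2 libraries. KLF2 libraries thus held both the lowest and the highest value (log2 fold change -0.21, SE 0.21). S100A10, its partner, is listed under 2 identifiers. For ENSGALG00010028048, the one with the lower p, the counts were 848, 486 and 489 against 343, 373 and 504, overlapping through KLF2 3. Its log2 fold change was -0.55 (SE 0.24, unadjusted p = 0.0377, adjusted p = 0.962 in limma). The other identifier did not reach an unadjusted p under 0.05 in limma.

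Of 8 proprotein convertases and other activators, 2 were higher and 6 lower (median -0.19). FURIN, the convertase that removes the propeptides of membrane MMPs, ADAMs and ADAMTS proteases, had normalized counts of 1526, 945 and 984 in EV and 638, 917 and 1059 in KLF2 libraries. EV 1 was the highest and KLF2 1 the lowest, with overlap through KLF2 3 (log2 fold change -0.40, SE 0.23; -0.18 without EV 1 and -0.19 without KLF2 1). BSG, a surface protein that induces MMPs in neighbouring cells, averaged 13087 ± 1265 in EV and 11431 ± 3003 in KLF2 libraries (SD, n = 3 each; log2 fold change -0.22, SE 0.18, and -0.03 without KLF2 1). Of 6 partners of ADAM10 and ADAM17, 2 were higher and 4 lower (median -0.11); RHBDF1, an iRhom that carries ADAM17 to the surface, had a log2 fold change of -0.31 (SE 0.18) and the kinase gene MAPK14 one of -0.04 (SE 0.13).

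The list of inhibitors and related proteins outside the TIMP family was split, with 7 higher and 4 lower of 11 tested (median 0.05). Not all of its genes encode protease inhibitors. SERPINH1, the collagen chaperone of the serpin family, averaged 12724 ± 863 in EV and 11286 ± 974 in KLF2 libraries (SD, n = 3 each; log2 fold change -0.17, SE 0.13), and SERPINF1 averaged 8.15 and 15.5 (log2 fold change 0.83, SE 0.52). The groups overlapped for both. Of 8 astacin, pappalysin and related genes, 5 were higher and 3 lower (median 0.34), mostly at low counts. STC2, a stanniocalcin that inhibits pappalysins, averaged 2555 and 2726 (log2 fold change 0.10, SE 0.14). MME, which encodes neprilysin, had normalized counts of 2.96, 0 and 0.955 in EV and 5.08, 9.32 and 4.78 in KLF2 libraries. The MME groups did not overlap, with an unadjusted p of 0.0203 (adjusted p = 0.962, limma with Benjamini-Hochberg adjustment).

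Cathepsins, serine proteases and hyaluronidases that act on matrix had 5 higher and 13 lower of 18 (median -0.12). LGMN, which encodes legumain, averaged 12099 and 12848 (log2 fold change 0.10, SE 0.17), and HYAL2, a hyaluronidase, 179 and 111 (log2 fold change -0.68, SE 0.40), with EV 1 highest and KLF2 1 lowest; without EV 1 it was -0.31. Of 19 shed ligands and receptors, 8 were higher and 11 lower (median -0.03). CDH2, the N-cadherin cut by ADAM10, averaged 11695 and 12205 (log2 fold change 0.05, SE 0.15), and NRG1, a growth factor of the EGF family, had at most 7 reads in any library. The CDH2 groups overlapped.

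Of 21 tested matrix substrates, 9 were higher and 12 lower (median -0.07). COL1A1, the type I collagen chain whose propeptide ADAMTS2 removes, had normalized counts of 40135, 33532 and 28489 in EV and 25417, 28957 and 26002 in KLF2 libraries. KLF2 2 lay above EV 3, so the groups overlapped (log2 fold change -0.33, SE 0.15, unadjusted p = 0.0445, adjusted p = 0.962 in limma). Leaving out single libraries gave -0.46 to -0.21. THBS2, a thrombospondin counted among the 12 lower, had 6, 1 and 5 reads in EV and 0, 0 and 1 in KLF2 libraries, and passed the filter on low values through the EV group only. Of 15 transcription factors known from protease promoters, 2 were higher and 13 lower (median -0.17). FOSL2, a subunit of AP-1, averaged 8481 and 9189.7 (log2 fold change 0.10, SE 0.16). SP1 had 886, 431 and 459.6 in EV and 269, 335 and 539.8 in KLF2 libraries, with EV 1 highest and KLF2 3 next (log2 fold change -0.62, SE 0.33; -0.29 without EV 1).

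A gene without a symbol may be related to MMP14. ENSGALG00010003937, on chromosome 35 from 392114 to 419643, has MMP14 as its best database hit in the deposited annotation, which lists no protein domain for it. The matrix protease domain is listed for another MMP14 hit, ENSGALG00010004063, inside it on the opposite strand, which averaged 0.832. MMP14 is the membrane MMP that activates proMMP2 in mammals. The normalized counts of ENSGALG00010003937 were 346, 184 and 158 in EV and 119.8, 178 and 207 in KLF2 libraries, with EV 1 highest and KLF2 1 lowest. The log2 difference was -0.39 (SE 0.31, 95% interval -1.07 to 0.28), with overlapping groups. At 70.4 ± 27.6 per kilobase (SD, n = 6) it stood below MMP15 at 226 ± 77.8 and MMP16 at 154 ± 31.0. It was named after its values were seen.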

How the data were processed

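Poly(A)-selected RNA from 3 EV and 3 KLF2 wells was sequenced. The submitters' processing notes list GRCg7b as the build and featureCounts 1.5.0-p3, StringTie 1.3.3b, HISAT2 2.0.5 and fastp as tools; which program normalized and tested is not given in the sources used. No strand-marking step is described, so reads from stretches where genes overlap cannot be told apart; how many there are was not measured. The deposited signal is a normalized count per gene and library, and per the file headers the authors also give each gene's p-value, adjusted p and log2 fold change. Dividing by the value of 1 read gave whole numbers for 100% of values (relative tolerance 1e-06), so reads were recovered. On these reads edgeR and DESeq2 called 0 genes. The authors' log2 fold changes matched those of DESeq2 on these reads, at -0.53324 in both for ADAM33 and 4.6954 in both for ADAMTS15.

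The main test was robust limma-trend (limma 3.58.1, R 4.3.3) on log2(normalized count + 1), two-sided, over 16765 genes whose mean reached 1 in at least 1 group; p-values were Benjamini-Hochberg adjusted and read at 0.05. Fold changes on this scale are understated for low genes, and intervals are at the 95% level. Alternatives were edgeR 4.0.16 and DESeq2 1.42.0 on recovered reads, TMM and quantile scaling, voom, other filters and pseudocounts, the replicate number as a block and leaving out libraries. Leaving out EV 1 and KLF2 3 together, and leaving out ADAM20, were added after seeing the data.

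Members, companion lists and markers were chosen with earlier results of these data known, so no list was tested. Members with a mean of at least 100 or an unadjusted p under 0.05 are given in every library; of each companion list the most abundant gene per kilobase and the one with the lowest p are named. Members, companion genes and markers were picked by the authors' symbols, and 10 members overlap another table gene. The scripts were tested on simulated data.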

Additional observations from a re-analysis of the deposited data

How the results depend on the processing

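Over 19 alternatives 0 members passed the threshold. Genes called went from 0 to 4 without EV 1 and KLF2 3, where KLF2 passed at a log2 fold change of 0.93. The members' median ran from -0.25 to -0.056 with 1 library left out. Of 703 values for 42 named genes, 664 kept direction and side, 38 turned sign (17 genes) and 1 passed. Without EV 1 and KLF2 3 the log2 fold changes of ADAM20, ADAMTS9 and MMP2 turned to -0.071, 0.079 and -0.063. Under quantile scaling those of ADAM9, ADAMTS7, CDH2 and MMP2 became -0.034, 0.057, -0.00057 and -0.038. In edgeR and DESeq2 ADAMTS7 became 0.0025 and 0.0034, and MMP2 -0.0011 and -0.00046. With 1 library left out, values that turned ran over these ranges: ADAM10 -0.015 to 0.22, ADAM12 -0.028 to 0.061, ADAM20 -0.050 to 0.14, ADAM23 -0.071 to 0.31, ADAM8 -0.28 to 0.00021, ADAM9 -0.041 to 0.084, ADAMTS12 -0.13 to 0.0080, ADAMTS7 -0.15 to 0.088, ADAMTS9 -0.37 to 0.073, ANXA2 -0.43 to 0.049, CDH2 -0.055 to 0.20, FOSL2 -0.067 to 0.24, LGMN -0.052 to 0.24, MAPK14 -0.080 to 0.023, MMP15 -0.48 to 0.064, MMP2 -0.11 to 0.12 and TIMP2 -0.51 to 0.0032. The cause was not tested. A block for the replicate number called 0 genes and 0 members. Residuals of same-numbered libraries correlated at -0.600, 0.144 and -0.511, and those of EV 1 and KLF2 3 at 0.719. Such residuals carry the main spread between libraries, so they cannot show whether same-numbered wells were handled together. For the 19 members with a mean under 20, depth limits what can be seen, and their intervals are wide.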

Other observations

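Further genes without a symbol had a best database hit in these families in the deposited annotation, and are given as values. Along chromosome 22, 3 adjacent genes between 2616680 and 2633057 matched ADAM32, a disintegrin-like protein known from the male germ line in mammals, and they begin just downstream of ADAM9. ENSGALG00010017720 had normalized counts of 109, 86.6 and 75.5 in EV and 57.9, 93.2 and 117 in KLF2 libraries. ENSGALG00010017737 had 44.4, 51.0 and 28.7 in EV and 46.7, 29.0 and 51.6 in KLF2 libraries, and the groups of both overlapped. ENSGALG00010017698 averaged 1.47 over the 6 libraries. A gene matching ADAMTSL2 on chromosome 8, ENSGALG00010010924, averaged 13.2, against 713 for ADAMTSL2 itself. Genes matching ADAM9 on chromosome 6 and ADAM21 on chromosome 15 averaged 1.93 and 0.334.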
